A study of Mus musculus with 2 samples.

Results

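CTCF binding in and around 11 imprinted gene domains was read from a ChIP-seq map of double-negative (DN) thymocytes. The domains are fixed windows of the mouse genome build mm9, drawn around H19/Igf2 to Kcnq1ot1, Peg3, Ube3a-Snrpn, Dlk1-Meg3, Gnas, Igf2r, Grb10, Peg10, Mest, Plagl1 and Rasgrf1. A bound region was a run of touching 25-bp bins listed by the authors, and it belonged to a domain when its centre lay in the window. By this rule 192 of the 53551 regions in the map were members. The windows cover 10.45 Mb, and the rule sets no limit on the number or width of the regions.

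The cells were CD4-CD8- thymocytes of Rag1 -/- mice on the C57BL/6 background, aged 4 to 8 weeks. Loss of Rag1, a gene needed to rearrange antigen receptor genes, halts thymocytes at this early stage, and both libraries carry it. The labels describe 1 library precipitated with an antibody against CTCF and 1 input library. They do not state how many animals were pooled. The values here come from the CTCF library, as the input was not analysed here. There was no replicate and no second condition, so stretches of the genome were compared inside a single library, without p-values.

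An imprinted gene is transcribed mainly from the copy inherited from one parent. Such genes sit in clusters, each governed by an imprinting control region that carries DNA methylation on a single parental copy. CTCF is a zinc-finger protein that binds DNA, blocks contact between enhancers and promoters and anchors chromatin loops. At the mouse H19/Igf2 control region it is known to bind the unmethylated maternal copy and to keep Igf2 from enhancers beyond H19. C57BL/6 is an inbred strain whose parental copies have the same sequence, so a listed region can come from either copy or from both, and they cannot be told apart in this map.

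The track holds positions without heights, so each region had a width and no signal level, and read depth is unknown. Gene positions in mm9 were not used here. Of 81 gene names listed for the domains, 79 were found in the GRCm38 gene table, where Th1l and Nelfcd name the same gene. All 79 lay on the chromosome of their window. Regions were not assigned to single genes, and their DNA sequence was not read. Intervals are exact 95% intervals for counting error. Neighbouring regions are not independent, so the true error is larger.

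The 11 domains differed widely in how densely CTCF bound them. The H19/Igf2 to Kcnq1ot1 window held 60 regions, the Igf2r window 23, the Ube3a-Snrpn window 21, and the Plagl1 and Rasgrf1 windows 18 each. The Gnas window had 16 regions and the Dlk1-Meg3 window 11. The Peg3, Mest, Peg10 and Grb10 windows had 8, 7, 6 and 4. Per length, the range ran from 5.25 regions per Mb in Ube3a-Snrpn to 46.2 per Mb in H19/Igf2 to Kcnq1ot1, an 8.79-fold difference. Against the rest of its own chromosome the density was above 1 with an interval that left out 1 in 1 domain, H19/Igf2 to Kcnq1ot1. It was below 1 with such an interval in 3 domains, Ube3a-Snrpn, Grb10 and Peg10, while in the other 7 the interval held 1. With the windows lengthened by 50 kb at both ends, the interval came to hold 1 at Grb10 (0.523, 0.226 to 1.03) and at Peg10 (0.669, 0.334 to 1.20). It then left out 1 at Igf2r (1.64, 1.10 to 2.34) and at Rasgrf1 (1.83, 1.21 to 2.65), so these 4 domains have no settled place against their chromosomes.

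The domains summed to 18.4 regions per Mb, against 21.7 per Mb on the autosomes outside them, a ratio of 0.846 (95% interval 0.731 to 0.975). That sum had no stable direction, and its interval held 1 once the windows were lengthened by 50 kb (0.937, 0.821 to 1.07). Without the Ube3a-Snrpn window, which is 4 Mb long, the ratio was 1.22 (1.05 to 1.42). Without the H19/Igf2 to Kcnq1ot1 window, which held 31.2% of the members, it was 0.664 (0.555 to 0.788). The domains are therefore described separately.

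**Figure D1:**
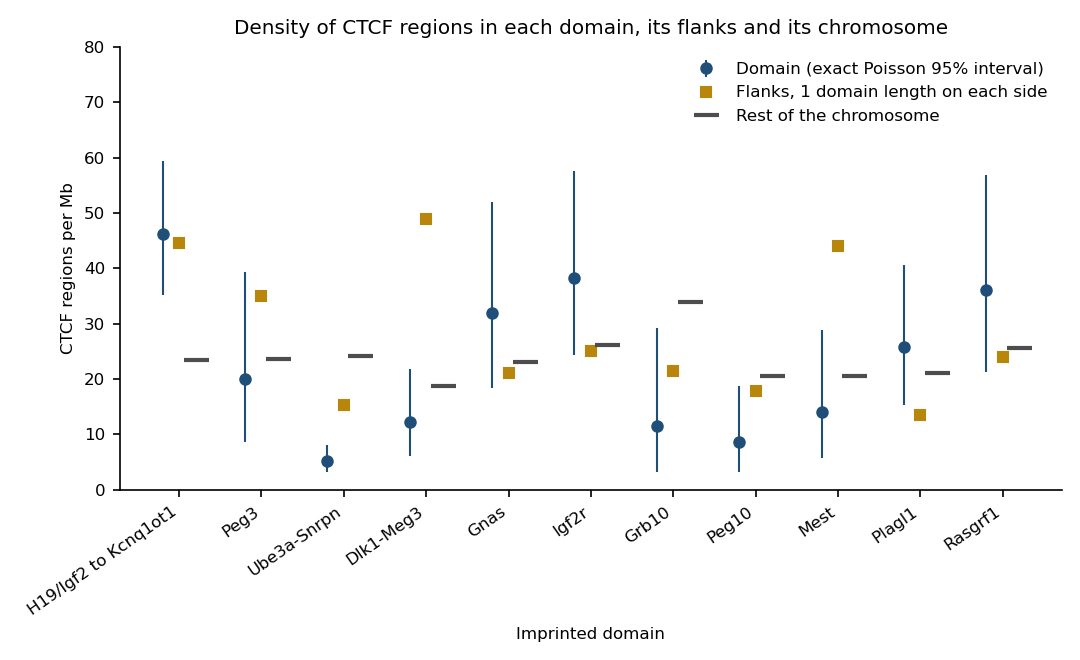
CTCF regions per Mb (vertical axis) in each of the 11 domains (blue points, bars are exact Poisson 95% intervals), in its flanks of 1 domain length on either side (ochre squares) and in the rest of its chromosome (grey dashes). The H19/Igf2 to Kcnq1ot1 point at 46.2 per Mb stands above its chromosome at 23.4 but beside its flanks at 44.6, whereas Ube3a-Snrpn at 5.25 lies below both.

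The distal part of chromosome 7 carries the best studied imprinted cluster of the mouse. Among the genes listed, their order in GRCm38 starts with Lsp1, Tnnt3, Mrpl23, H19, Igf2, Ins2, Th, Ascl2 and Tspan32. It goes on with Cd81, Tssc4, Kcnq1, Kcnq1ot1, Cdkn1c, Slc22a18, Phlda2 and Nap1l4. H19 is a maternally expressed non-coding RNA, and Igf2 encodes a growth factor of the embryo that is expressed from the paternal copy. Kcnq1ot1 is a paternally expressed non-coding RNA that silences neighbouring genes on its own chromosome, among them Cdkn1c, which encodes an inhibitor of the cell cycle.

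The window, from 149.5 to 150.8 Mb, held 46.2 regions per Mb (95% interval 35.2 to 59.4), against 23.4 per Mb on the rest of chromosome 7, a ratio of 1.97 (1.50 to 2.54). Its surroundings were as crowded. The flanks of equal length held 59 regions before the window and 57 after it, and the ratio to the flanks was 1.03 (0.744 to 1.42). Of 114 windows of 1.3 Mb tiled along chromosome 7, 16 held at least 60 regions and the median was 25. The high density was thus shared with the neighbouring 1.3 Mb on either side.

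Wide regions made up most of this domain. Of its 60 regions, 42 were 500 bp or wider, or 70.0% (56.8 to 81.2%), compared with 46.6% of all regions in the map. The flanks had 70 such regions of 116, or 60.3% (50.8 to 69.3%), and the intervals of domain and flanks overlapped. Regions of 100 bp or less numbered 9, and the median width was 575 bp. The widest region, 850 bp at chr7:150339305-150340154, was among the 1.49% of regions in the map that measured 850 bp or more. A further 3 regions exceeded 700 bp.

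The 60 regions fell into blocks on either side of a long empty stretch. The first block held 48 regions over 838 kb, from 149502305 to 150340154. Then came 309.5 kb without any listed region, from 150340155 to 150649679, and 12 regions over the last 149 kb, to 150798604. The widest region of the domain bordered this stretch. Gaps at least as long made up 2.30% of the gaps on the autosomes. Outside the window the nearest regions lay 20.1 kb before it (600 bp wide) and 82.3 kb after it (550 bp).

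Within the first block, 3 wide regions stood within 3.20 kb, at chr7:149764880-149765379 (500 bp), chr7:149766155-149766929 (775 bp) and chr7:149767405-149768079 (675 bp). The gaps between them were 775 and 475 bp. A like trio closed the block at chr7:150336980-150340154, with widths of 525, 550 and 850 bp and gaps of 625 bp each. These trios contained the closest spacing of 3 regions of 500 bp or more in the domain. A pair of 625-bp regions 200 bp apart lay at chr7:149922705-149924154, and a pair of 650 and 675 bp, 175 bp apart, at chr7:150691630-150693129.

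Runs of at least 3 regions with gaps of up to 10 kb numbered 12 in this domain, the 2 trios included. Before the first trio they lay at chr7:149519880-149526929 (3 regions), chr7:149614005-149626929 (6 regions), chr7:149666980-149683104 (3 regions) and chr7:149708205-149724229 (4 regions). The run of 6 was the longest by number in the domain and joined 3 wide regions with 3 of 25, 25 and 150 bp. Between the trios were runs of 3 regions at chr7:149900255-149912354, chr7:150272105-150281029 and chr7:150293105-150302904. All 3 regions of the run at 149900255 were wide (825, 600 and 550 bp), whereas the run at 150293105 held 0 wide regions (50, 75 and 225 bp). Past the empty stretch were a run of 4 wide regions of 600, 675, 600 and 675 bp at chr7:150649680-150666904 and runs of 3 at chr7:150691630-150700029 and chr7:150786055-150798604. The closest neighbours in the domain were a 75-bp and a 625-bp region 50 bp apart at chr7:149723480-149724229, and the fullest 100-kb bins, at 100 and 200 kb from the start of the window, held 9 regions each.

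The Peg3 domain, near the other end of chromosome 7, is named for a paternally expressed gene that encodes a zinc-finger protein. From 6.5 to 6.9 Mb it held 8 regions, or 20.0 per Mb (8.63 to 39.4), against 23.6 per Mb on the rest of the chromosome, a ratio of 0.847 (0.365 to 1.67). The flank before it held 20 regions and the flank after it 8. The wide regions stood apart from the rest. The first 5 regions, of 75, 350, 25, 100 and 150 bp, lay at chr7:6551180-6641879. After 229 kb without a region, from 6641880 to 6870879, came 3 wide ones of 625, 625 and 550 bp at chr7:6870880-6893954. The empty stretch took up 57.2% of the window, a larger part than in any other of the 11 domains.

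No run of 3 regions with gaps of up to 10 kb occurred in the Peg3 window. The closest pairs, 2 in number, were 50 bp apart, the first at chr7:6612430-6612854. The fullest 100-kb bin, at 100 kb from the window's start, held 4 regions. The nearest region outside was 50 bp wide and lay 20.7 kb before the window, and the next one after it, 525 bp wide, lay 173.7 kb away.

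The Ube3a-Snrpn domain was the most sparsely bound of the 11. Ube3a encodes a ubiquitin ligase that neurons express from the maternal copy, Snrpn a splicing protein expressed from the paternal copy, and Ndn, Magel2 and Mkrn3 are paternally expressed genes of the same cluster. From 66.0 to 70.0 Mb it held 21 regions, or 5.25 per Mb (3.25 to 8.03), against 24.1 per Mb on the rest of chromosome 7, a ratio of 0.218 (0.135 to 0.333). The flanks held 33 regions before and 90 after it, and the ratio to the flanks was 0.341 (0.204 to 0.545). Of 37 windows of 4 Mb tiled along the chromosome, 4 held 21 regions or fewer, and the median was 91.

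Wide regions were present in this sparse domain too. Of the 21, 12 were 500 bp or wider, or 57.1% (34.0 to 78.2%), an interval that held the 46.6% of all regions. Regions of 100 bp or less numbered 2 of 21, against 22.3% of all regions in the map. The widest, 700 bp at chr7:69686880-69687579, was the last region in the window. No gap was under 1 kb, and the closest neighbours, of 600 and 525 bp at chr7:69578055-69581704, were 2525 bp apart. In the other 10 domains the closest neighbours were 25 or 50 bp apart.

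Regions of the Ube3a-Snrpn domain came in small groups separated by empty stretches. A pair at chr7:66015180-66026129 was followed by 5 regions at chr7:66335455-66570929. Then 5 solitary regions followed, the first at chr7:67383555-67383929 (375 bp) and the last at chr7:67873080-67873654 (575 bp), each over 100 kb from the next. The 1647 kb from 67873655 to 69520479 had no region, and gaps this long or longer made up 0.103% of autosomal gaps (54 in number). Beyond it, 9 regions stood within 167 kb at chr7:69520480-69687579, of which 7 were wide and none was 100 bp or less. These 9 included runs of 3 regions at chr7:69520480-69533429 (550, 575 and 325 bp) and at chr7:69573105-69581704 (600, 600 and 525 bp). Of the 40 bins of 100 kb in the domain, 29 were empty and the fullest, at 3500 kb, held 7. Whether reads could be mapped in the empty stretches is not recorded in the track. The nearest outside regions were 0.496 kb before the window (550 bp wide) and 22.1 kb after it (575 bp).

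**Figure D2:**
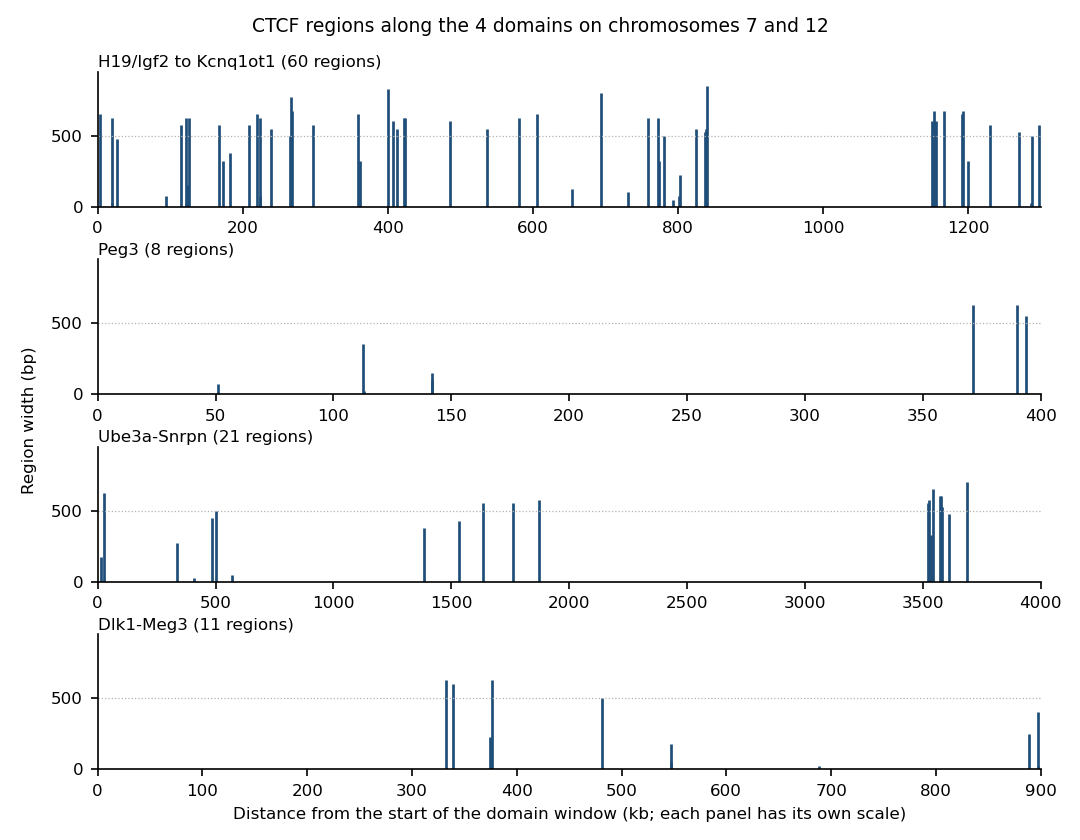
Position of each CTCF region in the 4 domains on chromosomes 7 and 12 (horizontal axis, kb from the start of the window) and its width (vertical axis, bp; the dotted line marks 500 bp). The empty stretches of 309.5 kb in H19/Igf2 to Kcnq1ot1 and 1647 kb in Ube3a-Snrpn and the trios of close wide regions in the first panel can be seen.

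The Dlk1-Meg3 domain on chromosome 12 pairs a paternally expressed protein, Dlk1, a membrane protein related to Notch ligands, with Meg3, a maternally expressed non-coding RNA. From 110.3 to 111.2 Mb it held 11 regions, or 12.2 per Mb (6.10 to 21.9), against 18.8 per Mb on the rest of the chromosome, a ratio of 0.650 (0.324 to 1.17). Its surroundings were much more densely bound. The flanks held 56 regions before and 32 after the window, a ratio of 0.250 (0.120 to 0.469), which was the lowest of the 11 domains. Of 131 windows of 0.9 Mb along chromosome 12, 59 held 11 regions or fewer, so the count was ordinary for the chromosome and low for its surroundings.

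The Dlk1-Meg3 window opened with 332 kb before its first region, as part of a gap of 348.8 kb that began at a 575-bp region 17.2 kb before the window. The first block, at chr12:110631911-110676410, held 4 regions of 625, 600, 225 and 625 bp. Next came a 500-bp region at chr12:110781011-110781510 and a close pair of 175 and 50 bp, 50 bp apart, at chr12:110847411-110847685. These 7 regions included all 4 wide ones of the domain. A solitary 25-bp region followed at chr12:110988361-110988385. After 200.5 kb without a region, from 110988386 to 111188860, the only run of 3 lay at chr12:111188861-111197360, with widths of 250, 400 and 25 bp. The fullest 100-kb bin, at 300 kb, held 4 regions, and the nearest region after the window, 725 bp wide, lay 47.6 kb beyond it.

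The Gnas locus on chromosome 2 encodes the stimulatory G protein alpha subunit together with transcripts of opposite parental origin, among them the antisense RNA Nespas. From 173.9 to 174.4 Mb the domain held 16 regions, or 32.0 per Mb (18.3 to 52.0), against 23.1 per Mb on the rest of the chromosome, a ratio of 1.38 (0.791 to 2.25). The flanks held 5 regions before and 16 after it, with a ratio of 1.52 (0.743 to 3.06). Neither interval left out 1.

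Regions at Gnas were mostly of middle or small width. Of the 16, 4 were 500 bp or wider, or 25% (7.27 to 52.4%), an interval that held the 46.6% of all regions in the map. In the flanks 14 of 21 were as wide, or 66.7% (43.0 to 85.4%). The intervals of domain and flanks overlapped, and 3 of the members were 475 bp wide, just under the limit. With regions of 500 bp or more alone, the ratio to the rest of the chromosome was 0.738 (0.201 to 1.89) in place of 1.38. The widest region, of 800 bp, opened the only run of 3, at chr2:173901124-173906648, where the other members were 25 bp each.

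A stretch of 173.4 kb without a region, from 173935949 to 174109398, separated the first 5 regions from the other 11, which lay at chr2:174109399-174358598. The bin from 200 to 300 kb held 8 of these 11, among them the second widest region, of 725 bp, at chr2:174136074-174136798. The closest neighbours, of 50 and 125 bp, were 25 bp apart at chr2:174186474-174186673, and the last region in the window, of 475 bp, ended at 174358598. The nearest region before the window was 262.5 kb away and 525 bp wide, and the next after it was 84.1 kb away and 550 bp wide.

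Igf2r encodes the receptor that removes Igf2 and is expressed from the maternal copy, while the antisense RNA Airn is made from the paternal copy. Its domain on chromosome 17, from 12.6 to 13.2 Mb, was the second most densely bound of the 11 windows as drawn. The interval of its density held the 36.0 per Mb of the Rasgrf1 window. The domain held 23 regions, or 38.3 per Mb (24.3 to 57.5), against 26.2 per Mb on the rest of the chromosome, a ratio of 1.46 (0.925 to 2.20). The flanks held 22 regions before and 8 after it, and the ratio to them was 1.53 (0.851 to 2.73). Wide regions numbered 13, or 56.5% (34.5 to 76.8%), an interval that held the 46.6% of all regions. The widest, of 800 bp, was the first in the window, at chr17:12608727-12609526. The window ended with a 625-bp region at chr17:13189102-13189726.

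Regions spread over the whole Igf2r window. No 100-kb bin was empty, and the bins at 0 and 400 kb held 7 regions each. The longest gap between members, 104.5 kb from 12728077 to 12832601, was the second shortest such gap of the 11 domains. These ran from 50.2 to 1647 kb, without the empty stretches at the edges of the windows. There were 3 runs, the largest of 5 regions (275, 25, 675, 525 and 325 bp) at chr17:13072527-13079851. In the whole domain 3 gaps measured 25 bp, the smallest that unjoined regions can have, the first at chr17:12614877-12614976. The neighbours outside the window were close, 3.45 kb before it (300 bp wide) and 3.01 kb after it (625 bp).

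Grb10 encodes an adaptor protein that restrains growth and is expressed from the maternal copy in most tissues of the mouse and from the paternal copy in neurons. The window on chromosome 11, from 11.75 to 12.1 Mb, held 4 regions, or 11.4 per Mb (3.11 to 29.3), against 34.0 per Mb on the rest of the chromosome, a ratio of 0.336 (0.0916 to 0.862). Windows this empty were common even so. Of 339 windows of 0.35 Mb along chromosome 11, 112 held 4 regions or fewer. The flanks held 11 and 4 regions, with a ratio of 0.533 (0.129 to 1.67). With the window shortened by 50 kb at both ends the ratio to the chromosome was 0.471 (0.128 to 1.21).

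All 4 regions at Grb10 lay within 52.9 kb. A pair of 700 and 575 bp, 875 bp apart, stood at chr11:11873221-11875370, and a 25-bp region lay 25 bp from one of 525 bp at chr11:11925546-11926120. The longest gap between members, which separated the pairs, was 50.2 kb from 11875371 to 11925545. Longer empty stretches lay at the edges of the window. The centre of the first member was 123.6 kb from its start and that of the last 174.1 kb from its end. The single bin from 100 to 200 kb held all members. Nearest outside were a 300-bp region 5.58 kb before the window and a 625-bp region 91.6 kb after it.

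Peg10, a paternally expressed gene derived from a retrotransposon and needed for the placenta, lies beside Sgce, which encodes a sarcoglycan. The window on chromosome 6, from 4.5 to 5.2 Mb, held 6 regions, or 8.57 per Mb (3.15 to 18.7), against 20.6 per Mb on the rest of the chromosome, a ratio of 0.417 (0.153 to 0.908). The flanks held 6 regions before and 19 after it, and the ratio to them, 0.480, had an interval that held 1 (0.161 to 1.20). Of 208 windows of 0.7 Mb along chromosome 6, 67 held 6 regions or fewer. The domain had 1 region of 500 bp or more among 6, the last, of 625 bp at chr6:5060296-5060920. The others measured 325, 75, 200, 325 and 100 bp, the first of them at chr6:4507621-4507945. A stretch of 310.7 kb, from 4749621 to 5060295, preceded the wide region. The closest neighbours, of 75 and 200 bp, were 25 bp apart at chr6:4550871-4551170, and the fullest bin, at 0 kb, held 3 regions. A 350-bp region lay 0.930 kb before the window and a 50-bp region 6.15 kb after it.

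Mest, also on chromosome 6, is a paternally expressed gene for a protein of the hydrolase family. From 30.5 to 31.0 Mb its window held 7 regions, or 14.0 per Mb (5.63 to 28.8), against 20.5 per Mb on the rest of the chromosome, a ratio of 0.682 (0.274 to 1.41). The flanks were denser, with 21 regions before and 23 after it, and the ratio to them was 0.318 (0.121 to 0.712). A run of 75, 25 and 325 bp at chr6:30687071-30691070 held the closest neighbours, 25 bp apart. After 181.8 kb without a region, from 30691071 to 30872845, followed regions of 450, 475, 650 and 525 bp up to 30988870. The widest, at chr6:30982896-30983545, and the last were the 2 wide members of 7. The bins at 100 and 400 kb held 3 regions each. The nearest regions outside were 14.5 kb before (575 bp) and 25.9 kb after the window (625 bp).

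Plagl1 encodes a zinc-finger transcription factor expressed from the paternal copy. Its window on chromosome 10, from 12.5 to 13.2 Mb, held 18 regions, or 25.7 per Mb (15.2 to 40.6), against 21.2 per Mb on the rest of the chromosome, a ratio of 1.22 (0.719 to 1.92). The flanks held 7 and 12 regions, with a ratio of 1.89 (0.938 to 3.81). Narrow and wide regions were equal in number, 7 each, and many stood side by side. Regions within 200 bp of each other, once joined, left 14 of the 18, and 6 of its 17 gaps were of 1 kb or less. On the autosomes 16.3% of gaps were of 1 kb or less. In the whole map 20.7% of regions had another within 200 bp, which is not the share lost by joining. Of 2 runs of 4 regions, 1 measured 1.23 kb in all, at chr10:12586428-12587652 with widths of 25, 550, 25 and 225 bp.

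The widest regions at Plagl1, of 625 bp, lay at chr10:12642703-12643327 and chr10:12738103-12738727. Of the 18 regions, 17 lay within 326.8 kb, and the last, of 600 bp at chr10:13149503-13150102, followed 236 kb without a region, from 12913178 to 13149502. The closest neighbours, of 25 and 275 bp, were 25 bp apart at chr10:12790928-12791252, and the fullest bin, at 200 kb, held 5 regions. Outside, a 550-bp region lay 79.4 kb before the window and a 25-bp region 72.6 kb after it.

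Rasgrf1 encodes an exchange factor for Ras proteins and is expressed from the paternal copy in the mouse brain. Its control region is known in the mouse to bind CTCF on the unmethylated maternal copy. The window on chromosome 9, from 89.6 to 90.1 Mb, held 18 regions, or 36.0 per Mb (21.3 to 56.9), against 25.6 per Mb on the rest of the chromosome, a ratio of 1.41 (0.833 to 2.23). The flanks held 14 and 10 regions, with a ratio of 1.50 (0.767 to 2.88). This domain held the widest region of all 192 members, 875 bp at chr9:89721726-89722600, and another of 850 bp at chr9:90008126-90008975. Regions as wide as 875 bp or wider made up 1.24% of the map.

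The widest member at Rasgrf1 bordered the longest gap of its domain, 112.8 kb from 89722601 to 89835425. Before it were 5 regions, the first of 525 bp at chr9:89601676-89602200, and after it 13, ending at 90099600. No run of 3 members occurred, and 12 of the 17 gaps measured 10 to 100 kb, a class that held 47.8% of autosomal gaps. Wide regions numbered 8, or 44.4% (21.5 to 69.2%), against 46.6% of all regions. A width of exactly 325 bp was found in 3 of the 18 and in 5.04% of all regions. It was also found in 2 of 6 at Peg10, 1 of 7 at Mest and 4 of 60 at H19/Igf2 to Kcnq1ot1. Ube3a-Snrpn and Igf2r had 1 each, and the remaining domains had none. No interval was computed for this share by domain. The closest neighbours, of 25 and 75 bp, were 25 bp apart at chr9:89632226-89632350, and the fullest bin, at 400 kb, held 6 regions. The window's edges cut through close neighbours. A 75-bp region lay 0.688 kb before it and a 675-bp region 1.54 kb after it.

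**Figure D3:**
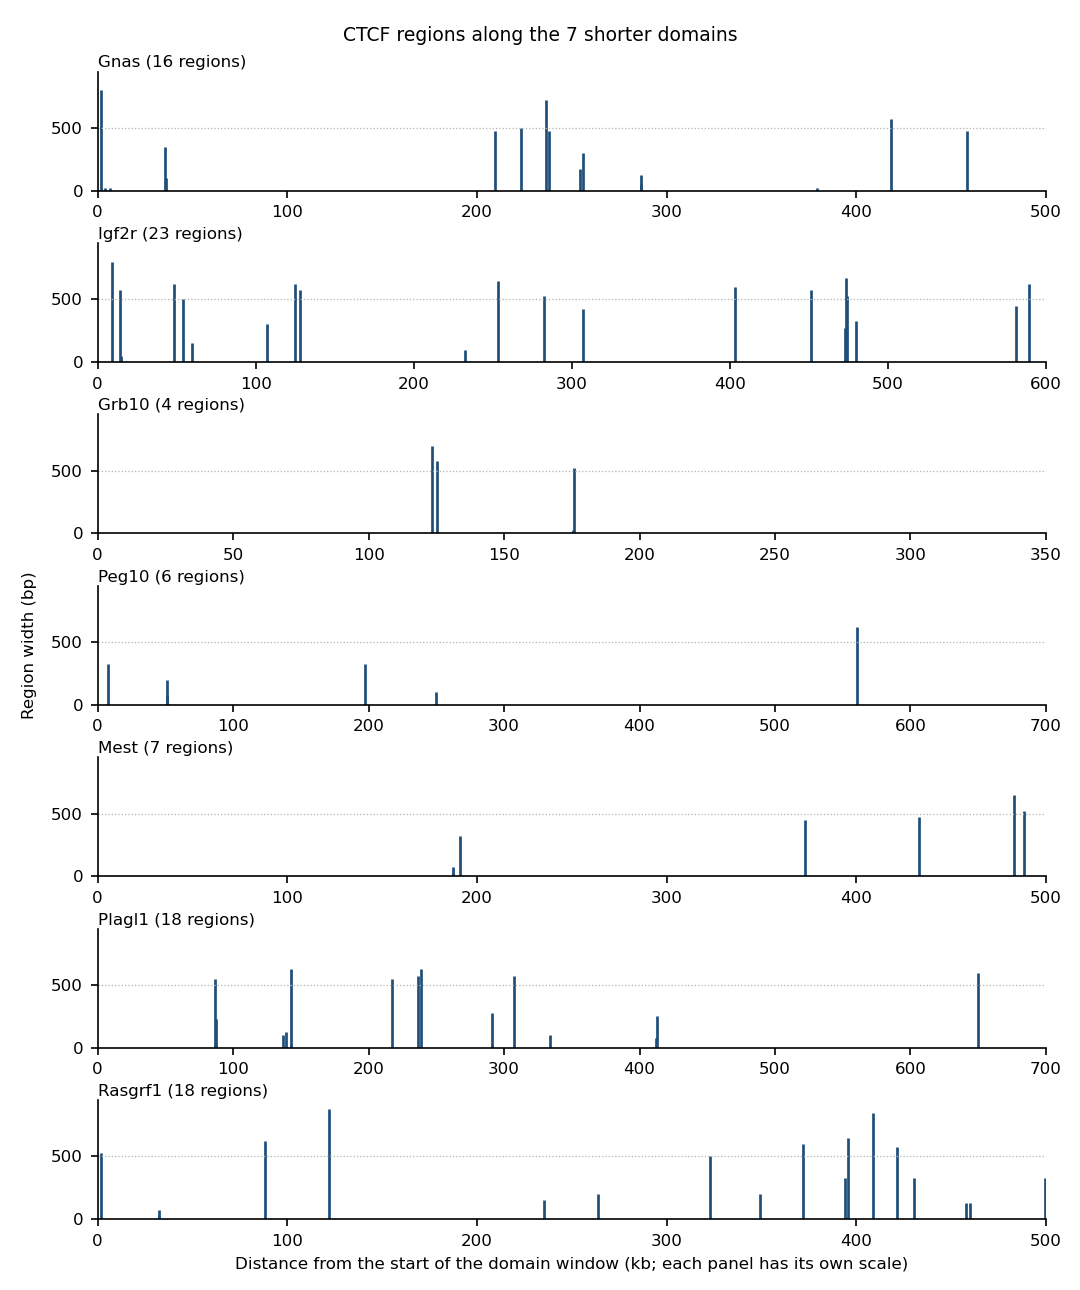
Position of each CTCF region in the 7 shorter domains (horizontal axis, kb from the start of the window, scaled to each window) and its width (vertical axis, bp; dotted line at 500 bp). Igf2r and Rasgrf1 have regions in every 100-kb bin, with longest gaps of 104.5 and 112.8 kb, whereas the 4 regions of Grb10 lie within 52.9 kb.

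Over all 192 members, widths were close to those of the rest of the map. The median was 500 bp, with quartiles of 150 and 600 bp, against 425 bp, with quartiles of 125 and 600 bp, on the autosomes outside the domains. Members of 500 bp or more numbered 99, or 51.6% (44.3 to 58.8%), an interval that held the 46.6% of all regions. Without the H19/Igf2 to Kcnq1ot1 domain the share was 43.2% (34.6 to 52.1%), from 57 of 132 regions. The share lay above 46.6% in 4 domains, H19/Igf2 to Kcnq1ot1, Ube3a-Snrpn, Igf2r and Grb10, and the interval left out that value in the first of these alone.

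Narrow members of 100 bp or less numbered 40, or 20.8% (15.3 to 27.3%), against 22.3% of all regions. Of these 40, 23 had another region within 200 bp, which was 57.5%, against 48.4% on the autosomes outside the domains. Members over 700 bp numbered 9, or 4.69% (2.17 to 8.71%), against 3.35% of all regions, and they lay in the H19/Igf2 to Kcnq1ot1, Gnas, Igf2r and Rasgrf1 domains. The width of exactly 325 bp, at which the whole map has a local maximum, was found in 12 members, or 6.25% (3.27 to 10.7%), against 5.04% of all regions. Each of these intervals held the share of the map.

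Spacing between members of the same domain was likewise close to that of the autosomes. Gaps across the edges of the windows, of 1.60 to 348.8 kb, were left out for the domains and kept for the autosomes. This can lower the share of long gaps in the domains. The median of 181 gaps between members of the same domain was 15.6 kb, with quartiles of 2.42 and 43.4 kb, against 14.4 kb, with quartiles of 3.15 and 41.4 kb, over 52235 autosomal gaps. Gaps over 100 kb numbered 20, or 11.05% (6.88 to 16.5%), against 9.94% on the autosomes. The Ube3a-Snrpn window held 7 of them and Grb10 none, although the gaps across the Grb10 edges measured 129 and 265 kb. Median gaps ran from 0.875 kb in Grb10, where the median of 3 gaps says little, to 71.4 kb in Ube3a-Snrpn. Of 105 bins of 100 kb over all windows, 46 held no region, 29 of them in Ube3a-Snrpn. The share of empty bins on the autosomes was not computed, so these counts are a description.

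Runs of at least 3 regions with gaps of up to 10 kb held 76 of the 192 members, or 39.6%, in 22 runs, against 40.3% of autosomal regions. Runs of members were cut at the edges of the windows, which can lower their share. They occurred in 7 domains, and 12 of the 22 were in H19/Igf2 to Kcnq1ot1. Neighbours that were both 500 bp or wider and at most 1 kb apart made up 8 of the 181 gaps between members, or 4.42%, against 1.58% of autosomal gaps. Of these 8, 6 were in H19/Igf2 to Kcnq1ot1, 1 in Igf2r and 1 in Grb10. This class was chosen after the positions were seen, so its share is a description.

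**Figure D4:**
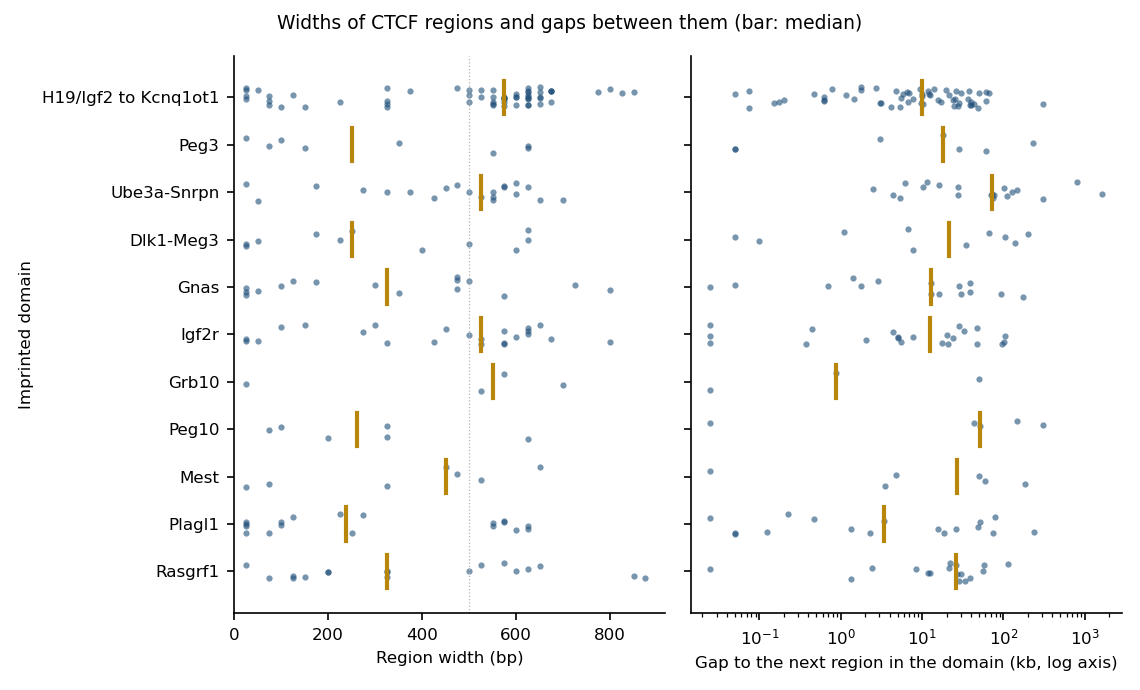
Width of every member region (left, bp; dotted line at 500 bp) and gap from each region to the next in its domain (right, kb, log axis) for the 11 domains, with 1 point per region or gap and an ochre bar at the median. The H19/Igf2 to Kcnq1ot1 points gather at 500 bp or more around a median of 575 bp, and the Ube3a-Snrpn gaps, with none under 1 kb, have a median of 71.4 kb.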

How the data were processed

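CTCF ChIP-seq was analysed for 1 library of DN thymocytes. The deposited track lists 825544 bins of 25 bp with positions and no score. Bowtie and the build mm9 are given per the submitters' processing notes. How peaks were called, at which threshold and with what use of the input is not given in the sources used here. Weaker sites below the threshold cannot be seen.

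Touching bins were joined into regions, and positions were made 1-based. Density was the number of regions over window length or, for chromosomes, over the distance between their outermost regions. Intervals were exact Poisson or Clopper-Pearson at 95%. For a ratio, the binomial interval of the share of regions inside was converted. Tiled windows started at each chromosome's first region. Joining and ratios were tested on simulated data.

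The rule for named sites took, in each domain, the first and last region, the widest region, the closest pair, the longest gap and the fullest bin of 100 kb, with runs at 4 domains. Trios, close wide pairs, blocks between long gaps, further wide regions and runs elsewhere were named after their values were seen. The windows, lists and tests were chosen with earlier results of these data known. GRCm38 tables gave gene names, chromosomes and order, by symbol (77) or synonym (2). No coordinates were converted. Values were computed with scipy 1.17.1 and pandas 2.3.3 on numpy 2.4.6 (Python 3.11.15) and drawn with matplotlib 3.10.9.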

Additional observations from a re-analysis of the deposited data

How the results depend on the processing

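Settings were varied for 15 results, which gave 80 values. Of these, 59 lay inside the main interval (for a count, under 1.5-fold from it) with the interval on the same side of 1, 11 moved, 7 came to hold 1, 2 came to leave it out and 1 reversed a ratio whose interval left out 1. The density of the 11 domains over the autosomes outside them, 0.846, became 1.22 without the Ube3a-Snrpn domain, 0.664 without the H19/Igf2 to Kcnq1ot1 domain (an alternative chosen after seeing the data) and 0.720 against the flanks. Its interval held 1 with regions over 100 bp (0.863), with regions of 500 bp or more (0.933) and with windows lengthened by 50 kb (0.937). The share of regions of 500 bp or more, 51.6%, became 59.5% joined within 1000 bp, 43.2% without the H19/Igf2 to Kcnq1ot1 domain and 29.2% with a limit of 600 bp. The median gap, 15.6 kb, became 25.1 kb joined within 1000 bp and 24.35 kb with regions of 500 bp or more alone, of which there were 99 in place of 192. With those regions the ratio to the rest of the chromosome, 1.97 for H19/Igf2 to Kcnq1ot1, became 2.89, that of Gnas, 1.38, became 0.738, and that of Peg10, 0.417, became 0.152. The Grb10 ratio, 0.336, had an interval that held 1 with those regions (0.530), with longer windows (0.523) and with shorter ones (0.471). With longer windows the Peg10 ratio was 0.669 and its interval held 1, whereas the intervals at Igf2r (1.64) and Rasgrf1 (1.83) left it out. In all, 3 ratios crossed 1, the pooled one, that of Gnas and that of Plagl1 (0.961 joined within 1000 bp, against 1.22), and the main intervals of Gnas and Plagl1 held 1. The count with wide regions alone and the share at the limit of 600 bp fall by construction. For the ratios this does not hold, since regions inside and outside the windows were filtered alike. Why the ratios and the other values moved was not tested. The motif alternative was not run, since no mm9 genome was used. No paired analysis was possible because the labels give 1 CTCF library. An empty stretch shows only that no bin passed the authors' threshold there.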
